A study of Mus musculus with 6 samples.

Results

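The chemokine genes and the genes of their receptors were examined in the RNA of osteoclast precursors (OCPs) with *lincRNA-EPS* (WT) and without it (KO). The set was taken by name, as the protein-coding genes called *Ccl*, *Cxcl*, *Ccr* or *Cxcr* with a number, together with *Cx3cl1* and *Cx3cr1*. *Cxcr2* was left out. This gave 54 genes, 37 ligands and 17 receptors, of the 57180 genes in the table. Another 4 rows with such names were not listed as protein coding and were left out too. They were *Cxcl11* and 3 *Ccl19* copies. The rule reads names and no measured value.

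Chemokines are small secreted proteins that bind G protein-coupled receptors and direct the movement of leukocytes along a gradient. Many inflammatory CC ligands bind more than one receptor and most CC receptors bind several ligands, while CX3CL1 and CXCL16 each have a receptor of their own, so ligand and receptor genes are best read together. In bone, monocytes and OCPs carry CCR1, CCR2, CX3CR1 and CXCR4, which serve in recruitment to the bone surface and in cell fusion, and macrophages and osteoclasts make several CC ligands themselves. Many CC ligand genes of the mouse lie side by side on chromosome 11, and many CC receptor genes on chromosome 9.

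Bone marrow-derived macrophages, as the labels name the cells, came from wild-type C57BL/6 mice (WT) or from lincRNA-EPS knockout mice (KO), with 3 libraries per genotype stated to be independent. All 6 cultures received M-CSF, a macrophage growth factor, at 40 ng/ml for 24 h. RANKL, which turns such cells into osteoclasts, was then added at 40 ng/ml for 48 h. The labels name no inflammatory stimulus for them. The age and sex of the mice and any pooling of animals were not given for these cultures in the sources used here, nor was the deleted stretch of *lincRNA-EPS*.

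Libraries held between 17757351 and 19998611 estimated counts, and the 3 counts taken as the lowest level that can be told from 0 equal 0.150 to 0.169 CPM, the counts scaled to a common library size. *LincRNA-EPS*, listed as *Ttc39aos1* (ENSMUSG00000085873), was read 20, 37 and 41 times in the WT libraries and never in the KO libraries, as the labels require. Macrophage markers were abundant in every library, with a summed level over the 10 listed genes of 17130 to 18190 CPM in WT and 15380 to 18050 CPM in KO. The osteoclast markers summed to 5341 to 5762 CPM in WT and 7128 to 7535 CPM in KO, so the cultures held both programmes. Libraries also differed in base composition. The correlation across genes of a library's deviation from the mean with transcript GC content was 0.332, 0.668 and 0.394 in WT replicates 1, 2 and 3 and 0.134, -0.165 and -0.726 in the KO replicates, which splits the genotypes, and values after a correction for GC content are therefore given too. In bulk RNA, fewer cells of one type and less RNA per cell cannot be told apart.

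Of the 54 genes, 24 had 10 or more counts in at least 3 libraries, 15 ligands and 9 receptors. Another 14 had no count in any library, all of them ligands. These were the eotaxins *Ccl11* and *Ccl26*, the lymphoid and homeostatic ligands *Ccl1*, *Ccl17*, *Ccl19*, *Ccl20*, *Ccl21a*, *Ccl21b*, *Ccl21d* and *Ccl27b*, and *Ccl8*, *Cxcl13*, *Cxcl15* and *Cxcl17*. The other 16 had at least 1 count in all, and no more than 14 in any library. They were *Ccl24*, *Ccl27a*, *Ccl28*, *Cxcl1*, *Cxcl3*, *Cxcl9*, *Cxcl12*, *Cxcl14*, *Ccr1l1*, *Ccr4*, *Ccr6*, *Ccr8*, *Ccr10*, *Cxcr1*, *Cxcr5* and *Cxcr6*. *Cxcl9*, an interferon-inducible ligand of CXCR3, was read 0, 0 and 1 times in the WT libraries and 0, 0 and 2 times in the KO libraries. *Ccr8*, *Ccr4* and *Cxcl9* did not reach 3 counts in any library. In an edgeR fit with no filter on low counts, 1 of these 16 genes, *Cxcr6*, had an unadjusted p-value under 0.05. At that limit 13.0% of all genes were higher and 13.2% lower in the edgeR fit with the filter. The share in the unfiltered fit is not given here. *Cxcr6*, the receptor of CXCL16, had 4, 0 and 1 counts in WT and 8, 6 and 5 counts in KO. Its adjusted p-value in the unfiltered edgeR fit was 0.26, and it is named after its values were seen.

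Levels of 23 of the 24 genes were set in order by CPM per kilobase of the longest transcript, as means over the 6 libraries. *Ccl9*, a CC ligand of CCR1, led at 391 CPM per kilobase. *Ccl2* followed at 127, and *Ccr1* at 64.1 was the most abundant receptor. Next came *Ccl7* at 58.5, *Cxcl16* at 31.5, *Ccl3* at 26.8, *Ccl6* at 18.9, *Cxcr4* at 18.0, *Cx3cr1* at 13.1 and *Ccl4* at 11.6 CPM per kilobase. *Ccr2*, *Ccl12*, *Ccl22*, *Ccl5*, *Ccr3*, *Ccr7*, *Cxcl10*, *Cxcr3*, *Cxcl2* and *Ccl25* lay between 8.41 and 1.57, and *Cxcl5*, *Cx3cl1* and *Ccr9* between 0.677 and 0.222 CPM per kilobase. Only *Ccl9*, *Ccl2* and *Ccl7* had all 6 libraries above all 6 of the next gene in this order, and the libraries of every other pair of neighbours overlapped. The order moved with genotype. In WT alone *Ccl7* at 52.8 CPM per kilobase was above *Ccr1* at 47.7, and *Cxcr4* at 18.5 above *Ccl6* at 16.4.

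**Figure D1:**
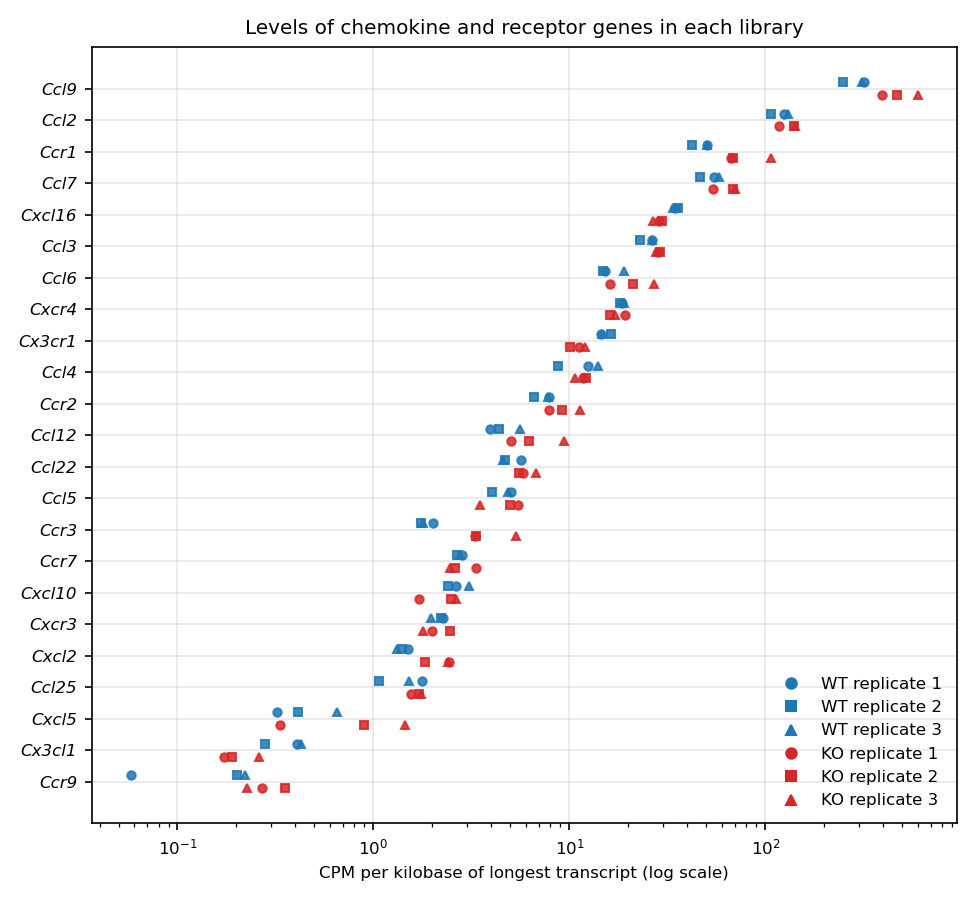
Levels of 23 measured chemokine and receptor genes in CPM per kilobase of the longest transcript (horizontal log axis), 1 point per library, WT in blue and KO in red, genes in order of the mean over 6 libraries. *Ccl9* lies above all other genes in every library, and *Ccr1* and *Ccr3* show all KO points to the right of all WT points.

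The comparison of KO with WT asks which of these genes differ in OCPs that lack lincRNA-EPS. In the expression of single genes, *Ccr3*, *Ccr1* and *Ccl9* stood at 2.15, 1.69 and 1.65 times the WT level in KO, and *Cx3cr1*, *Cxcl16* and *Cx3cl1* at 0.733, 0.821 and 0.562 times. None of the 24 genes was called by edgeR's quasi-likelihood test at the limits of 0.01 for the adjusted p-value and 1.3 for the fold change. Of all 13428 genes tested, 1 passed (0.00745%). It was *Dtx3l*, which is no chemokine gene and is named after its value was seen, with a log2 fold change of -2.25 ± 0.14 (SE). DESeq2 at the same limits called 60 genes higher in KO (0.447% of those tested), among them *Ccr3*, *Ccl9* and *Ccr1*, and 69 lower (0.514%), none of them a chemokine or receptor gene. At an unadjusted p-value under 0.05, edgeR gave 5 of the 24 genes as higher in KO, beside 13.0% of all genes tested, and 3 as lower, beside 13.2%. The 5 were *Ccr3*, *Ccl9*, *Ccr1*, *Cxcl2* and *Ccr2*, and the 3 were *Cx3cr1*, *Cxcl16* and *Cx3cl1*. Their adjusted p-values in edgeR lay between 0.136 and 0.176. With 3 against 3 libraries, the smallest exact permutation p is 0.1, and such tests were left out.

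All 3 KO libraries lay above all 3 WT libraries for 7 of the 24 genes, where 16.9% of all genes tested did, and below them for 3, where 18.8% did. A log2 fold change above 0 was found for 15 of the 24, and for 51.0% of all genes. The median log2 fold change was 0.18 over the 24 genes and 0.01 over all genes tested. After GC correction these medians were 0.09 and -0.01.

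**Figure D2:**
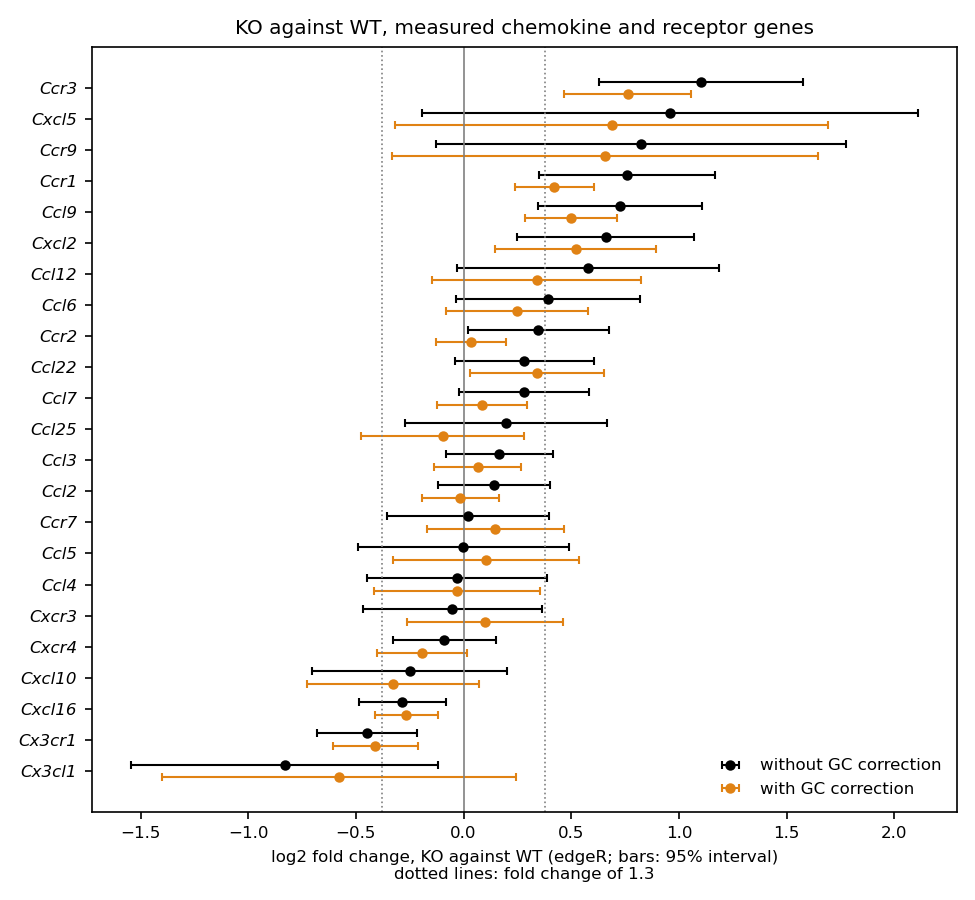
Log2 fold change of KO against WT for 23 of the 24 genes by edgeR (horizontal axis), with 95% intervals, before GC correction (black) and after it (orange), 3 libraries per genotype. The values of *Ccr3*, *Ccr1* and *Ccr2* shift towards 0 with the correction, from 1.10, 0.76 and 0.35 to 0.76, 0.42 and 0.03, while those of *Cx3cr1* and *Cxcl16* move by less than 0.05.

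Among the CC receptors, *Ccr1* encodes the receptor of CCL3, CCL5, CCL6 and CCL9. It was at 143, 119 and 142 CPM in WT replicates 1, 2 and 3 and at 189, 194 and 301 CPM in KO replicates 1, 2 and 3. KO replicate 3 stood apart above the other two, and all KO libraries lay above all WT libraries. The log2 fold change was 0.76 ± 0.18 (SE) with a 95% interval of 0.35 to 1.17, and the adjusted p-value was 0.147 in edgeR and 0.00679 in DESeq2. Over all alternative fits its adjusted p-value ranged from 0.00105 to 0.442. Without KO replicate 3 the log2 fold change was 0.51, and after GC correction 0.42. Among the 17 receptors of the set, *Ccr1* took 44.8%, 40.5% and 44.6% of the CPM in the WT replicates. In the KO replicates it took 53.4%, 54.2% and 60.7%.

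*Ccr3* encodes the eotaxin receptor, best known from eosinophils, basophils and mast cells. Its levels were 6.57, 5.75 and 5.88 CPM in the WT replicates and 10.8, 10.9 and 17.4 CPM in the KO replicates. The WT libraries were close together, and again KO replicate 3 was the highest without any overlap between genotypes. Its log2 fold change of 1.10 ± 0.21 (SE), with a 95% interval of 0.63 to 1.58, was the largest among the 24 genes, with an adjusted p-value of 0.136 in edgeR and 0.000706 in DESeq2. Across the alternative fits the adjusted p-value lay between 0.000706 and 0.442. The log2 fold change was 0.83 without KO replicate 3 and 0.76 with GC correction. Its eotaxin ligands *Ccl11* and *Ccl26* were at 0 in all libraries, and *Ccl24* did not exceed 3 counts. Of the 8 listed mast cell and basophil markers, 4 were tested, and 3 of them (*Cpa3*, *Mcpt8* and *Prss34*) had an unadjusted p-value under 0.05 in edgeR in the direction of KO, as 13.0% of all genes had, each at no more than 3.57 CPM. The fourth, *Kit*, had a log2 fold change of -0.27, and of -0.30 with an unadjusted p-value of 0.0426 in edgeR after GC correction. The 8 markers summed to 16.6 to 17.5 CPM in WT and 16.5 to 19.2 CPM in KO, most of it from *Kit*, and *Tpsb2* and *Mcpt4* were at 0. The part of such cells in the *Ccr3* value was not tested.

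*Ccr2* encodes the receptor of CCL2, CCL7 and CCL12 on inflammatory monocytes. The WT replicates had 44.9, 37.7 and 44.6 CPM and the KO replicates 45.1, 52.3 and 64.5 CPM. KO replicate 1 was just above the highest WT library. The log2 fold change was 0.35 ± 0.14 (SE), with an adjusted p-value of 0.176 in edgeR, and was 0.03 after GC correction. Without KO replicate 3 it was 0.20, with an unadjusted p-value of 0.114 in edgeR. Its counts were not whole in 2 libraries, so reads shared with similar genes may have been divided there.

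*Ccr7*, the receptor that guides dendritic cells and lymphocytes to lymph nodes, ranged from 5.31 to 5.62 CPM in WT and from 4.84 to 6.61 CPM in KO, with a log2 fold change of 0.02 ± 0.17 (SE). *Ccr9*, the receptor of CCL25, ranged from 0.301 to 1.15 CPM in WT and from 1.17 to 1.84 CPM in KO. Its log2 fold change of 0.82 ± 0.42 (SE) had an adjusted p-value of 0.235 in edgeR and was 0.41 without WT replicate 1, the lowest library.

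Of the CXC and CX3C receptors, *Cx3cr1* encodes the fractalkine receptor of monocytes and macrophages. It was at 65.4, 73.2 and 66.0 CPM in the WT replicates and at 50.6, 45.5 and 53.8 CPM in the KO replicates. All KO libraries were below all WT libraries, and the spread within each genotype was similar. The log2 fold change was -0.45 ± 0.10 (SE) with a 95% interval of -0.68 to -0.21, and the adjusted p-value was 0.147 in edgeR and 0.0161 in DESeq2. Of all fits at the limits given, only DESeq2 with GC correction called it, at an adjusted p-value of 0.00513 and a log2 fold change of -0.41. The adjusted p-value was between 0.00513 and 0.442 in the alternatives, and leaving out 1 library kept the log2 fold change between -0.50 and -0.39. Beside it, 6 of the 10 macrophage markers had an unadjusted p-value under 0.05 in edgeR in the same direction (among them *Adgre1*, *Itgam*, *Fcgr1*, *Mertk* and *Cd14*), and 7 of 12 osteoclast markers in the opposite one, where 13.2% of all genes were lower and 13.0% higher. *Ctsk* had a log2 fold change of 0.77 and *Dcstamp* of 0.84. After GC correction 5 macrophage markers were lower and 1 higher, and 8 osteoclast markers higher. The 13.2% and 13.0% belong to the uncorrected fit and give no background for these counts. The part of the balance between these programmes in the *Cx3cr1* value was not tested.

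*Cxcr4*, the receptor of CXCL12, was at 33.6, 32.7 and 34.2 CPM in WT and at 34.6, 29.0 and 30.8 CPM in KO, with a log2 fold change of -0.09 ± 0.10 (SE). *Cxcr3*, the receptor of CXCL9 and CXCL10, lay between 3.41 and 3.91 CPM in WT and between 3.11 and 4.26 CPM in KO. Both genes overlapped between genotypes. Their 95% intervals were -0.33 to 0.15 and -0.47 to 0.36 on the log2 scale.

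**Figure D3:**
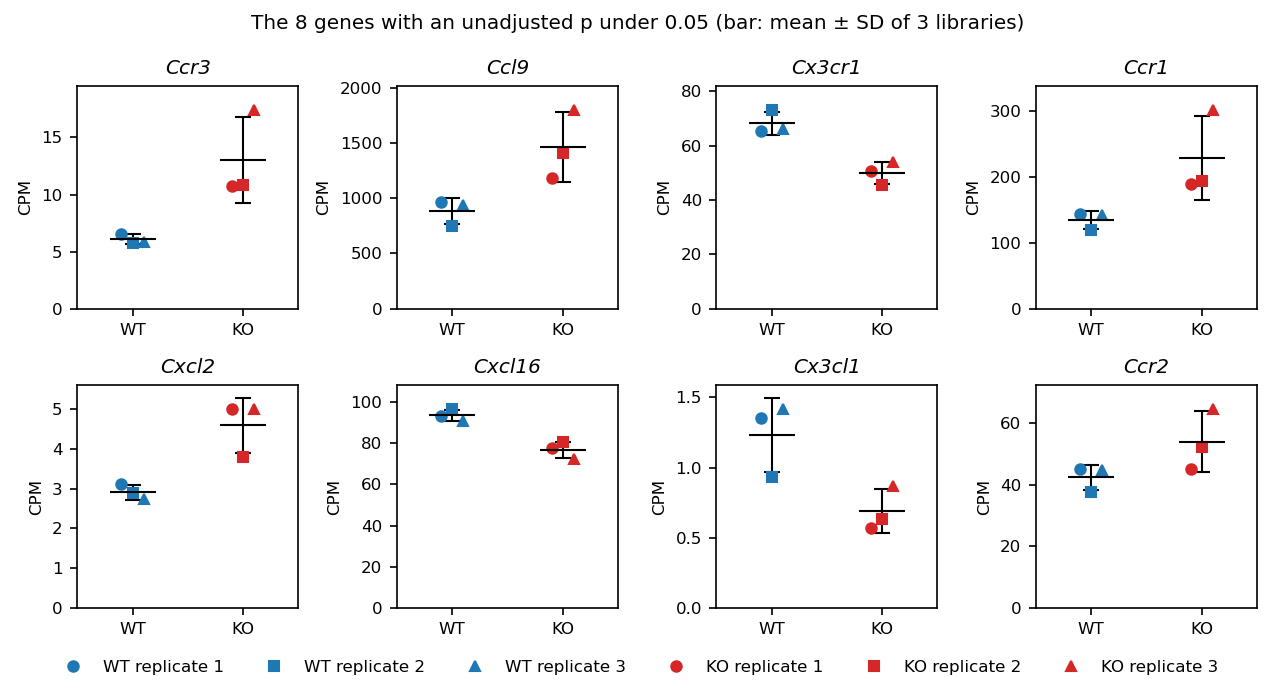
Normalised read counts in CPM (vertical axes from 0) in the 3 WT (blue) and 3 KO (red) libraries for the 8 genes with an unadjusted p-value under 0.05 in edgeR, with mean and SD. For each gene the WT and KO points are separate, and KO replicate 3 is the highest KO point for *Ccr3*, *Ccl9*, *Ccr1*, *Ccr2*, *Cx3cr1* and *Cx3cl1*.

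Among the ligands, *Ccl9* was the most abundant. Its product binds CCR1 and is made in quantity by macrophages and osteoclasts under RANKL. The WT replicates had 962, 752 and 941 CPM and the KO replicates 1180.4, 1409.6 and 1799.8 CPM. WT replicate 2 was the lowest and KO replicate 3 the highest, with no overlap. Against WT this was a log2 fold change of 0.73 ± 0.17 (SE) with a 95% interval of 0.35 to 1.10, and the adjusted p-value was 0.147 in edgeR and 0.00381 in DESeq2. In the alternatives the adjusted p-value ranged from 4e-05 to 0.442. Without KO replicate 3 the log2 fold change was 0.55, and 0.50 with GC correction. Among the 37 ligands of the set, *Ccl9* supplied 72.8%, 69.7% and 71.6% of the CPM in the WT replicates. In the KO replicates it supplied 77.7%, 78.5% and 82.0%. The platelet chemokines given below are outside this share and the sums that follow. The summed ligand level was 1237 ± 138 CPM in WT and 1837 ± 340 CPM in KO (mean ± SD, n = 3), and without *Ccl9* it was 353 ± 23.6 CPM and 373 ± 30.8 CPM. The difference between the sums was thus carried by *Ccl9*.

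The start regions of the 3 genes called by DESeq2 are shown with those of *Cxcl2* and *Cxcl10*, inflammatory ligands whose fold changes had opposite signs. Each is the 250 bases before the start of the gene in RefSeq on GRCm38.p6, written 5′ to 3′ on the strand of the gene. Capitals mark matches, on either strand, to the NF-κB (kB) site, to the interferon-stimulated response element (ISRE), to the AP-1 site TGANTCA, to the NFAT core TGGAAA and to the TATA box TATAAA, some of which overlap.
Ccl9, chr11:83578637-83578886, minus strand: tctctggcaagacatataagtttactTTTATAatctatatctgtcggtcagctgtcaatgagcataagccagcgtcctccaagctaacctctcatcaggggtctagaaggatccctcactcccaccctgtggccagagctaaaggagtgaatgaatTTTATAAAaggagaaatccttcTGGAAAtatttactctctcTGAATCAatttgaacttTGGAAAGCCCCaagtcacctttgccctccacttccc
Ccr1, chr9:123968693-123968942, minus strand: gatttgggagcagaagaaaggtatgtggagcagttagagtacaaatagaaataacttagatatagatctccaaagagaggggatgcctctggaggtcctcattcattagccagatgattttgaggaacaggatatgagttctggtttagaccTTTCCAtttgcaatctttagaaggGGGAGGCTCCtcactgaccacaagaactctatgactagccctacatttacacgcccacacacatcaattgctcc
Ccr3, chr9:124021721-124021970, plus strand: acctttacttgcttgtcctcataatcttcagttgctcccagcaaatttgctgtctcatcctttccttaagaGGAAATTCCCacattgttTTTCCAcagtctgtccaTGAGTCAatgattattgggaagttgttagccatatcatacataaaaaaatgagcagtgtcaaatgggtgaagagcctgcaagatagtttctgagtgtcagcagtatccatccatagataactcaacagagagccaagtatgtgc
Cxcl2, chr5:90903649-90903898, plus strand: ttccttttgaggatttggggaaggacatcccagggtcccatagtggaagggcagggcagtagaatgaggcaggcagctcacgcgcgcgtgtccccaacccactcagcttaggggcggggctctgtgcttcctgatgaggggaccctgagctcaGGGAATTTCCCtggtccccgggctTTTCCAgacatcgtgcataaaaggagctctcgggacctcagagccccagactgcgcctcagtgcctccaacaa
Cxcl10, chr5:92348890-92349139, minus strand: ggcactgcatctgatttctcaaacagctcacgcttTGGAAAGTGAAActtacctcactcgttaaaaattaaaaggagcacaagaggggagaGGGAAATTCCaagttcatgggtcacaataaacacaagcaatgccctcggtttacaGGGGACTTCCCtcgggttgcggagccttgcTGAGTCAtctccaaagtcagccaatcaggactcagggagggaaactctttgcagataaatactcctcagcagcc
A promoter was listed for 16 of the 24 genes, and not for *Ccl2*, *Ccl4*, *Ccl5*, *Ccl7*, *Ccr7*, *Cxcl16* and *Cxcl5* among others. A kB match was present in 5 of the 16 genes. These are the 5 shown, which were chosen and not drawn at random, so that all 5 held a match is no result about them. Of all 32851 promoters of the same length, counted per promoter and not per gene, 7.25% had one. Of the 24 genes under the count minimum that had a promoter, 5 held a kB match too (*Ccl1*, *Ccl20*, *Ccr6*, *Cxcl1* and *Cxcl3*). TGGAAA was present in 6 of the 16, the 5 shown and *Ccr2*, and in 18.6% of all promoters. TGANTCA was found in *Ccl9*, *Ccr3* and *Cxcl10*, beside 6.75% of all, and the ISRE in *Cxcl10*, beside 2.98%. TATAAA was found in *Ccl9*, *Ccl12*, *Ccl25*, *Cx3cl1* and *Cxcr4*, beside 12.4% of all. The PU.1 site GAGGAAGT was in *Cxcr3* (2.44% of all), and the E-box CACGTG bound by MITF was in none of the 16 (6.02% of all). Matches of letters do not show that a factor was bound, and no test was made of them.

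The other inflammatory CC ligands measured were *Ccl6*, *Ccl3*, *Ccl4* and *Ccl5*. *Ccl6*, a neighbour of *Ccl9* with a related sequence, was at 21.8, 21.4 and 27.4 CPM in WT and at 23.3, 30.5 and 38.9 CPM in KO, with overlap and a log2 fold change of 0.39 ± 0.19 (SE). This was 0.19 without KO replicate 3 and 0.56 without KO replicate 1. *Ccl3* was at 20.2, 17.6 and 20.3 CPM in WT and at 21.7, 22.3 and 21.2 CPM in KO. Its KO libraries were all above its WT libraries, but the log2 fold change was only 0.16 ± 0.11 (SE), and its counts were not whole in any of the 6 libraries. *Ccl4* was at 8.22, 5.80 and 9.24 CPM in WT and at 7.71, 8.05 and 7.08 CPM in KO. *Ccl5* was at 3.36, 2.68 and 3.25 CPM in WT and at 3.65, 3.34 and 2.34 CPM in KO. The genotypes overlapped for *Ccl4* and *Ccl5*, with 95% intervals of -0.45 to 0.39 and -0.49 to 0.49 on the log2 scale. The sign for *Ccl5*, at a log2 fold change of 0.00, turned with the scaling and the GC correction.

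The ligands of CCR2, which draw monocytes out of the marrow, overlapped between genotypes. *Ccl2* was at 137, 118 and 144 CPM in WT and at 129, 154 and 156 CPM in KO. *Ccl7* was at 43.6, 36.9 and 46.4 CPM in WT and at 43.5, 54.7 and 56.0 CPM in KO. *Ccl12* ranged from 2.11 to 2.99 CPM in WT and from 2.71 to 5.04 CPM in KO. Their log2 fold changes were 0.14 ± 0.12, 0.28 ± 0.13 and 0.58 ± 0.27 (SE), with adjusted p-values of 0.443, 0.212 and 0.204 in edgeR. With GC correction *Ccl2* was at -0.01, *Ccl7* at 0.09 and *Ccl12* at 0.34. Without KO replicate 3 *Ccl12* was at 0.28, and *Ccl2* was at 0.06 without WT replicate 2 and at 0.23 without KO replicate 1. The summed level of the CCR2 ligands was 177 ± 18.5 CPM in WT and 201 ± 23.0 CPM in KO (mean ± SD, n = 3).

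Of the 5 neutrophil-attracting CXC ligands in the set, which bind CXCR2, only *Cxcl2* and *Cxcl5* reached the count minimum. *Ppbp*, a CXC ligand whose name the rule does not take, is given with the platelet chemokines below. *Cxcl2* was at 3.11, 2.90 and 2.73 CPM in WT and at 4.999, 3.80 and 4.99 CPM in KO. The genotypes did not overlap, and KO replicates 1 and 3 were nearly equal. A log2 fold change of 0.66 ± 0.18 (SE) was found, with an adjusted p-value of 0.147 in edgeR and 0.0831 in DESeq2, and 0.52 after GC correction. Leaving out 1 library kept it between 0.60 and 0.78. *Cxcl5* ranged from 0.602 to 1.21 CPM in WT and from 0.625 to 2.70 CPM in KO, and its log2 fold change of 0.96 ± 0.51 (SE) was 0.39 without KO replicate 3. Of 13 neutrophil markers, 10 were tested, and 4 (*Ltf*, *Ngp*, *Retnlg* and *Chil3*) were higher and 2 (*Mpo* and *Prtn3*) lower in KO at an unadjusted p-value under 0.05 in edgeR, beside 13.0% and 13.2% of all genes. After GC correction 6 were higher and 1 lower, and *Mpo* and *Prtn3* were no longer among them. For the corrected fit the share of all genes at that limit is not given here. The neutrophil sum was 1074 to 1194 CPM in WT and 1261 to 1367 CPM in KO, while *Ly6g*, which defines mature neutrophils, did not exceed 0.251 CPM. The part of neutrophil RNA in the *Cxcl2* value was not tested.

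*Cxcl10*, the interferon-inducible ligand of CXCR3, was at 5.92, 5.36 and 6.88 CPM in WT and at 3.80, 5.58 and 5.91 CPM in KO. KO replicate 1 was below all other libraries and the rest overlapped. Its log2 fold change was -0.25 ± 0.20 (SE), with a 95% interval of -0.70 to 0.20, and was -0.07 without that library.

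*Cxcl16* and *Cx3cl1* differ from the other ligands in that both are made as membrane-bound proteins, which hold cells as well as attract them. *Cxcl16* was at 93.0, 96.5 and 90.9 CPM in the WT replicates and at 77.5, 80.3 and 72.5 CPM in the KO replicates. Every KO library was below every WT library, with little spread within a genotype. The log2 fold change was -0.28 ± 0.09 (SE) with a 95% interval of -0.49 to -0.08, and the adjusted p-value was 0.147 in edgeR and 0.0738 in DESeq2. This is a fold change under 1.3, so *Cxcl16* could not be called at the limits used. Its counts were not whole in all 6 libraries. *Cx3cl1*, the fractalkine ligand of CX3CR1, was at 1.35, 0.930 and 1.42 CPM in WT and at 0.573, 0.633 and 0.866 CPM in KO. The gap between the highest KO and the lowest WT library was narrow. Its log2 fold change was -0.83 ± 0.31 (SE) with an adjusted p-value of 0.161 in edgeR, and -0.58 after GC correction. Its unadjusted p-value in edgeR was 0.0272, and 0.147 after GC correction, and DESeq2 did not have it under 0.05.

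The 2 measured lymphoid and homeostatic ligands were *Ccl22*, which binds CCR4, and *Ccl25*. *Ccl22* ranged from 10.1 to 12.5 CPM in WT and from 12.3 to 15.0 CPM in KO, with a log2 fold change of 0.28 ± 0.14 (SE) and 0.34 after GC correction. Its unadjusted p-value in edgeR was 0.0797, and 0.0353 after GC correction, where the adjusted p-value was 0.163. *Ccl25* ranged from 2.74 to 4.51 CPM in WT and from 3.96 to 4.48 CPM in KO, with a log2 fold change of 0.20 ± 0.21 (SE) that turned to -0.10 with GC correction. It was 0.02 without WT replicate 2 and 0.36 without WT replicate 1.

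The fold changes were also set out by position. In GRCm38 (the counts were made on GRCm39 per the submitters' processing notes, whose positions are not used here), *Ccr1* lies at chr9:123962124-123968692 on the minus strand and *Ccr3* at chr9:124021972-124031689 on the plus strand, followed by *Ccr2* at chr9:124101950-124113557. Along this stretch the log2 fold changes were 0.76, 1.10 and 0.35, and 0.42, 0.76 and 0.03 after GC correction. These 3 genes have a transcript GC content of 39.1% to 39.4%. *Ccl9* lies at chr11:83572919-83578636 on the minus strand. In the order *Ccl5*, *Ccl9*, *Ccl6*, *Ccl3* and *Ccl4* along chromosome 11, the log2 fold changes were 0.00, 0.73, 0.39, 0.16 and -0.03. *Cx3cr1*, at chr9:119901616-120069879 on the minus strand, is outside the receptor cluster. On chromosome 8, *Ccl22* and *Cx3cl1* are neighbours with log2 fold changes of 0.28 and -0.83. Differences between neighbours were not tested.

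**Figure D4:**
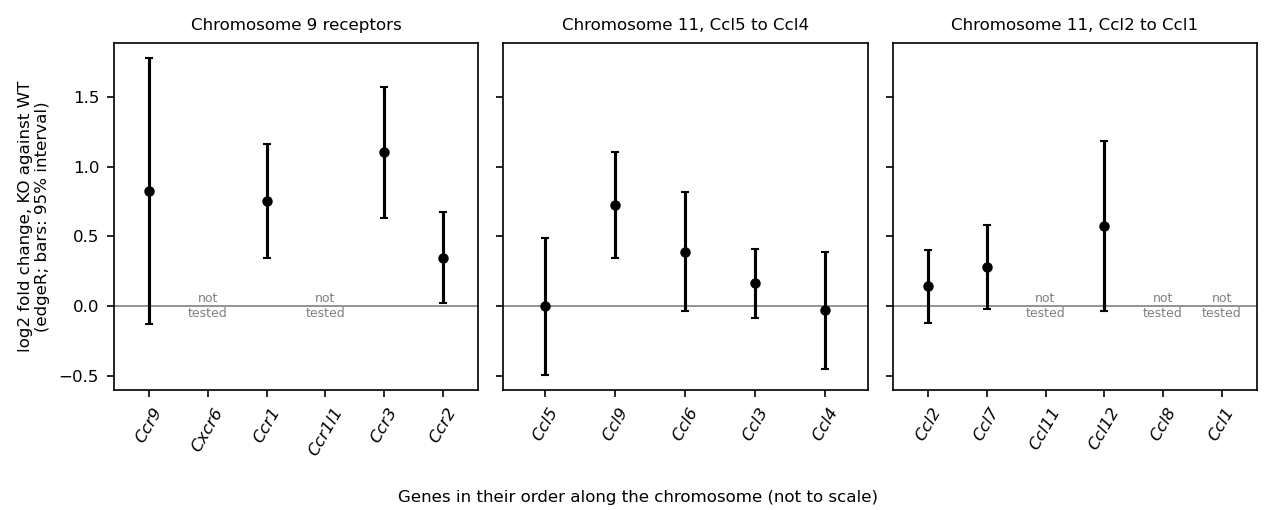
Log2 fold change of KO against WT by edgeR with 95% intervals (vertical axis) for chemokine receptor genes on chromosome 9 and for both groups of CC ligand genes on chromosome 11, in chromosomal order and not to scale. From *Ccr3* to *Ccr2* the values go from 1.10 to 0.35, and *Ccl9* at 0.73 stands between *Ccl5* at 0.00 and *Ccl6* at 0.39.

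The fold changes of the 24 genes followed their GC content. The correlation across genes (not independent replicates) of the log2 fold change with GC content was -0.51 over 13176 genes tested and -0.695 over the 24, whose points share the same 6 libraries. The 24 genes had a median GC content of 45.1%, where all genes tested had 49.2%. *Ccr3*, *Ccr1*, *Ccl25* and *Ccr2* lie at the low end, *Ccl25* with a log2 fold change of 0.20, and *Cx3cl1* at the high end with 57.1%. After GC correction the correlation over the 24 was -0.42. Corrected log2 fold changes not given above were 0.25 for *Ccl6*, 0.065 for *Ccl3*, -0.03 for *Ccl4*, 0.10 for *Ccl5*, 0.69 for *Cxcl5* and -0.33 for *Cxcl10*. Among the receptors they were -0.19 for *Cxcr4*, 0.10 for *Cxcr3*, 0.15 for *Ccr7* and 0.66 for *Ccr9*. With this correction edgeR called none of the 24, beside 0.0223% of all genes, and DESeq2 called *Ccr3*, *Ccl9* and *Ccr1* higher, beside 1.21% of all genes, and *Cx3cr1* lower, beside 1.16%. At an adjusted p-value under 0.05, edgeR with GC correction passed *Ccr3* (0.0437) and *Ccl9* (0.0496), where 0.856% of all genes passed. With the replicate number as a block in the same fit neither passed, at adjusted p-values of 0.0747 and 0.0818 in edgeR. When WT replicate 2 and KO replicate 3, the libraries at the GC extremes, were left out, edgeR passed *Ccr1*, *Ccr3* and *Cx3cr1* at that limit, where 0.578% of all genes did, with log2 fold changes of 0.42, 0.80 and -0.45.

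**Figure D5:**
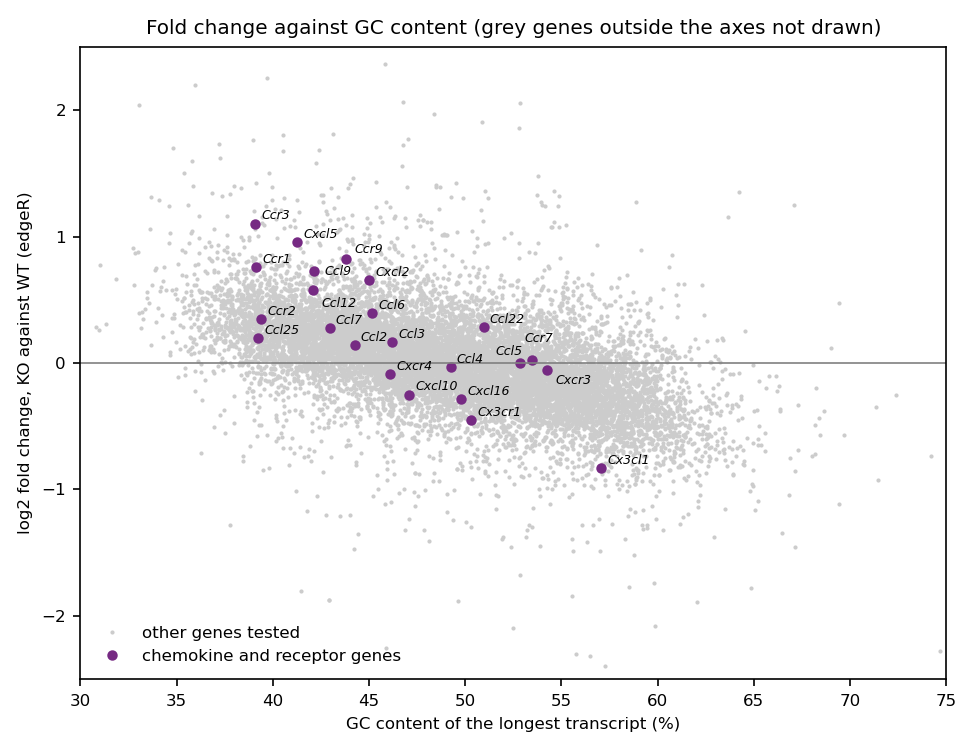
Log2 fold change of KO against WT by edgeR (vertical axis) against the GC content of the longest transcript in percent (horizontal axis), with 23 chemokine and receptor genes in purple and the other genes tested in grey. The grey cloud slopes downwards from left to right and most purple points lie on it, from *Ccr3* at 1.10 on the left to *Cx3cl1* at -0.83 on the right.

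The genes around the chemokine system were read from 2 lists. Of 13 platelet chemokines, atypical receptors and other chemoattractant receptors, 7 were tested. The formyl peptide receptors *Fpr1* and *Fpr2* were higher in KO at an unadjusted p-value under 0.05 in edgeR, with log2 fold changes of 0.54 and 0.79, and the chemerin receptor *Cmklr1* and the complement receptor *C5ar1* lower, with -0.93 and -0.27. *Cmklr1*, at 14.6, 17.1 and 14.5 CPM in WT and 8.96, 7.30 and 7.94 CPM in KO, was the 1 of these that DESeq2 called, and edgeR called none. Of the platelet chemokines, *Pf4* (CXCL4) ranged from 38.6 to 60.7 CPM over the libraries and *Ppbp* (CXCL7) from 65.1 to 88.1 CPM. Their log2 fold changes were 0.06 ± 0.17 and 0.20 ± 0.11 (SE), and the genotypes overlapped for both. Of 76 genes that signal below chemokine receptors, 75 were tested, and 11 were higher (14.7%) and 24 lower (32%) in KO at an unadjusted p-value under 0.05, beside 13.0% and 13.2% of all genes. The lower ones included *Dock2*, which drives Rac activation in leukocyte migration (log2 fold change -0.39), *Pik3cg*, the PI3 kinase downstream of G proteins (-0.33), and the Src family kinase *Fgr* (-0.50). Among the higher ones were the phospholipase *Plcb4* (0.56) and the G protein subunit *Gnb4* (0.42). After GC correction 9 were higher and 21 lower. The share of all genes at that limit after correction is not given here, so these corrected counts are not weighed. Neither edgeR nor DESeq2 called any of the 75, and the median log2 fold change was -0.13.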

How the data were processed

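RNA was sequenced from 3 WT and 3 KO cultures on stranded mRNA libraries. The authors deposited estimated counts per gene, without normalization. The submitters' processing notes name fastp, HISAT2, StringTie, RSEM and GRCm39, without versions or roles. The pooled means of each genotype in the table were not used.

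Estimated counts were rounded. The 10-count minimum used them before rounding, and *Ccl27a*, with 2 such libraries, was the nearest below it. In R 4.3.3, genotypes were compared over all genes with edgeR 4.0.16 (filterByExpr, TMM, glmQLFit with legacy = FALSE, glmQLFTest) and p-values adjusted by the Benjamini-Hochberg method. DESeq2 1.42.0 and limma 3.58.1 (voom) were alternatives. Intervals take the SE of the fit and t quantiles, and floors cover counting error only. The GC correction enters a natural spline (5 degrees of freedom) per library as offsets. GC content, lengths and positions come from the longest transcript in GENCODE M21 on GRCm38.

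No pair of libraries was a duplicate, since even the closest, WT replicates 1 and 3, differed with a chi-square of 3.77 per degree of freedom. By this measure KO replicate 1 was nearer to WT replicates 1 and 3 (9.3 and 8.95) than to KO replicates 2 and 3 (39.23 and 56.94). Same-numbered WT and KO libraries had correlations of their deviations of -0.473, 0.188 and 0.389, and no source states a pairing, so the numbers were not used as pairs. The fits were tested on simulated data.

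Every gene above the 10-count minimum but 1 was named, with values of each library for those with an unadjusted p-value under 0.05 or called by DESeq2, the 10 most abundant, and a fixed list of receptors and ligands. That gene stays in the fits and the counts of genes called or set in a direction, and is not reported here. The gene family and the lists were chosen with earlier results of these data known, although the rule itself reads gene names alone. The fit without WT replicate 2 and KO replicate 3 was added after seeing the data.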

Additional observations from a re-analysis of the deposited data

How the results depend on the processing

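With 3 libraries per genotype that also split by GC content, genotype and library composition cannot be fully told apart, and genes under the count minimum were fitted only in the alternative without a filter. Genes called numbered 1 in edgeR, 129 and 126 in DESeq2 on the same genes and with its own filtering, 3 and 319 with GC correction in edgeR and DESeq2, 8 without WT replicate 2 and KO replicate 3, and 0 to 2 with each library left out in turn (0 without WT replicate 2, WT replicate 3 or KO replicate 2, and 2 without KO replicate 1). Of the chemokine and receptor genes, edgeR called 0, DESeq2 3 under both filters (*Ccl9*, *Ccr1* and *Ccr3*) and DESeq2 with GC correction 4 (also *Cx3cr1*). The cause of the gap between the tools was not tested. At an unadjusted p-value under 0.05 in edgeR, 8 of the 24 genes stood in the main fit, beside 13.0% of all genes higher and 13.2% lower. With a library left out they numbered 6 to 11, and the replicate block gave 11 and called 0. Shares of all genes at that limit in these fits, or with no filter, are not given here, so the counts are not read as results about the 24. Added to the GC correction in edgeR, the replicate block left 1 gene called in place of 3, and at an adjusted p-value under 0.05 it left 36 in place of 115, with 0 chemokine or receptor genes in place of 2. With no filter on low counts, 10 were under 0.05 unadjusted, among them *Cxcr6*. WT replicates 1 and 2 deviated most like KO replicates 3 and 1, so not every library correlated best with its own number.

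Directions turned for 6 of the 23 genes shown, with log2 fold changes of -0.05 (*Cxcr3*) to 0.20 (*Ccl25*) before the alternatives. Log2 fold changes became -0.015, -0.015 and -0.017 for *Ccl2*, -0.098, -0.095 and -0.091 for *Ccl25*, 0.10, 0.10 and 0.10 for *Cxcr3* and 0.10, 0.10 and 0.10 for *Ccl5* under GC correction in edgeR, in DESeq2 and with the replicate block. Without WT replicate 2 and KO replicate 3 they were -0.016 for *Ccl25*, 0.065 for *Cxcr3* and 0.080 for *Ccl5*. *Ccl5* was also at 0.0018 with DESeq2's size factors, 0.0040 and 0.00057 in DESeq2 with the same genes and its own filtering, and 0.0012 in edgeR's legacy test. With 1 library left out, values ran from -0.20 to 0.11 for *Ccl4*, -0.13 to 0.17 for *Ccl5*, -0.12 to 0.11 for *Ccr7* and -0.19 to 0.044 for *Cxcr3*. Over the 23 genes shown, 27 values reversed, 10 passed the limits only in an alternative and 400 kept direction and call.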
